A study of Mus musculus with 8 samples.

Results

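The glutathione S-transferase family of mouse liver was followed through 10 genes: Gsta1, Gsta2, Gsta3, Gsta4, Gstm1, Gstm2, Gstm3, Gstm6, Gstp1 and Gstt1. Every probe whose accession named one of these symbols was taken, which gave 18 probes of 55681 on the arrays and 10 genes of 19752 with a symbol. The tested livers came from 4 Rap1 -/- mice and the control livers from 4 wild-type mice, all aged 10 weeks and on the C57BL6/129SV background. The knockout is a whole-body one, made by crossing mice with a floxed Rap1 allele to mice with an EIIa-cre transgene that is active in the early embryo, so every cell type of the liver carries the deletion and not hepatocytes alone. Each liver was read on 1 single-colour (Cy3) oligonucleotide array. Sex and feeding are absent from the labels, and the study describes the young animals it profiled as females, kept on standard chow and sampled before they became obese. It used livers of both fed and fasted young mice, and which of these states the 8 livers were in is not known here.

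Glutathione S-transferases join the tripeptide glutathione to reactive compounds, which makes these less harmful and marks them for export into bile and blood. The soluble enzymes work as dimers and fall into classes by sequence, among them alpha (Gsta), mu (Gstm), pi (Gstp) and theta (Gstt), and hepatocytes are rich in several of them. Alpha and mu genes are classic targets of NRF2, the transcription factor that answers oxidative stress, and of the xenobiotic receptors CAR and PXR, and in rodents several differ between the sexes. Members of a class lie side by side in the genome and are alike in sequence, so a probe for 1 gene may also bind the transcript of its neighbour.

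The upstream sequences of 3 alpha genes on chromosome 9 are shown because their levels moved almost as one from liver to liver (given further on). Each runs 5′ to 3′ over the 250 bases before the annotated start, from RefSeq (GRCm38.p6), at chr9:78230419-78230668 on the plus strand for Gsta1, chr9:78289678-78289927 on the plus strand for Gm10639, an alpha-class gene of the same cluster, and chr9:78347146-78347395 on the minus strand for Gsta2. The capitals mark 1 uninterrupted run of 18 bases that all 3 share, and further bases outside it are also identical.
Gsta1: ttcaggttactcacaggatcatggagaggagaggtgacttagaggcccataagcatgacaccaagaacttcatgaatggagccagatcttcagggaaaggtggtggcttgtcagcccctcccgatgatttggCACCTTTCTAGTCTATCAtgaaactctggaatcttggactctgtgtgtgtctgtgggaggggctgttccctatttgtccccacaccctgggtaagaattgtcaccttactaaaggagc
Gm10639: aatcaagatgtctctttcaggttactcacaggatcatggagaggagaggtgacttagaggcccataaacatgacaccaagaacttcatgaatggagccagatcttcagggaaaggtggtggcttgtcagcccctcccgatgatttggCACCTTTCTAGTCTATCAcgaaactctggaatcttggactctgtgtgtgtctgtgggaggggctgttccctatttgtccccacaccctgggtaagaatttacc
Gsta2: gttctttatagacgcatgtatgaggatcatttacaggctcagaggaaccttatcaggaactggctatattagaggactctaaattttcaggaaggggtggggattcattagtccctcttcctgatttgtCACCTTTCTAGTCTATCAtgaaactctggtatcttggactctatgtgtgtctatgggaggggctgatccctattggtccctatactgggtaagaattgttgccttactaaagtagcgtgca
Of 235 aligned bases of Gsta1 and Gm10639, 98.7% were identical, against 77.0% of 239 for Gsta1 and Gsta2 and 77.5% of 222 for Gm10639 and Gsta2. The shared run began 118 bases before the start in Gsta1, 103 bases in Gm10639 and 121 bases in Gsta2. Whether the shared sequence bears on the levels was not tested, and probes of these genes may bind each other's transcripts.

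The core of the antioxidant response element, the site that NRF2 binds, was searched as TGACNNNGC on both strands in windows of 300 bases, 250 of them before the start. It was present in 1 of 12 windows of the members (8.33%), in 4 of 41 windows of all family genes (9.76%) and in 12.4% of all 32851 windows. The member was Gsta3, an alpha enzyme that in the mouse is known for detoxifying aflatoxin epoxide, whose match began 121 bases before the start and stands in capitals here (RefSeq GRCm38.p6, chr1:21240424-21240512, plus strand).
Gsta3: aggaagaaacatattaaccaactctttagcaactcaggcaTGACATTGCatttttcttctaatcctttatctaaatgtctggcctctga
Gsta4 had no window in the table and was not searched. The remaining matches were in Gstm5, Gstm7 and Mgst1. A match is a run of letters and not a measured binding site.

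None of the 10 genes passed the threshold in Rap1-deficient livers. The comparison used limma on log2 signals set relative to each array's 75th percentile, with p-values adjusted over all 14066 tested genes and a threshold of 0.05, and members' adjusted p-values ran from 0.770 to 0.955. Over all tested genes 2 were called (0.0142%), and neither belonged to the family: Chst4 and Zfhx3, named after their values were seen, were both lower in Rap1 -/- livers. At an unadjusted p under 0.05, 2 members were higher (Gstm3 and Gstm6) and 0 lower, beside 4.01% of all tested genes higher and 2.35% lower.

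All 10 members nevertheless had a higher mean in Rap1 -/- than in wild-type livers, with a median log2 difference of 0.23, and under 5 of 21 other ways of processing 9 had, with Gstp1 turned. Over all tested genes 56.1% had a difference above 0 and the median was 0.02, and over the 6836 genes whose probe was at least as bright as that of Gsta1, the dimmest of the members, 63% lay above 0 with a median of 0.05. The members were read in the same 8 livers and vary together, so their shared sign is not 10 separate readings. They were also chosen with earlier results of these data known, so the shared sign is a description and was not tested.

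**Figure D1:**
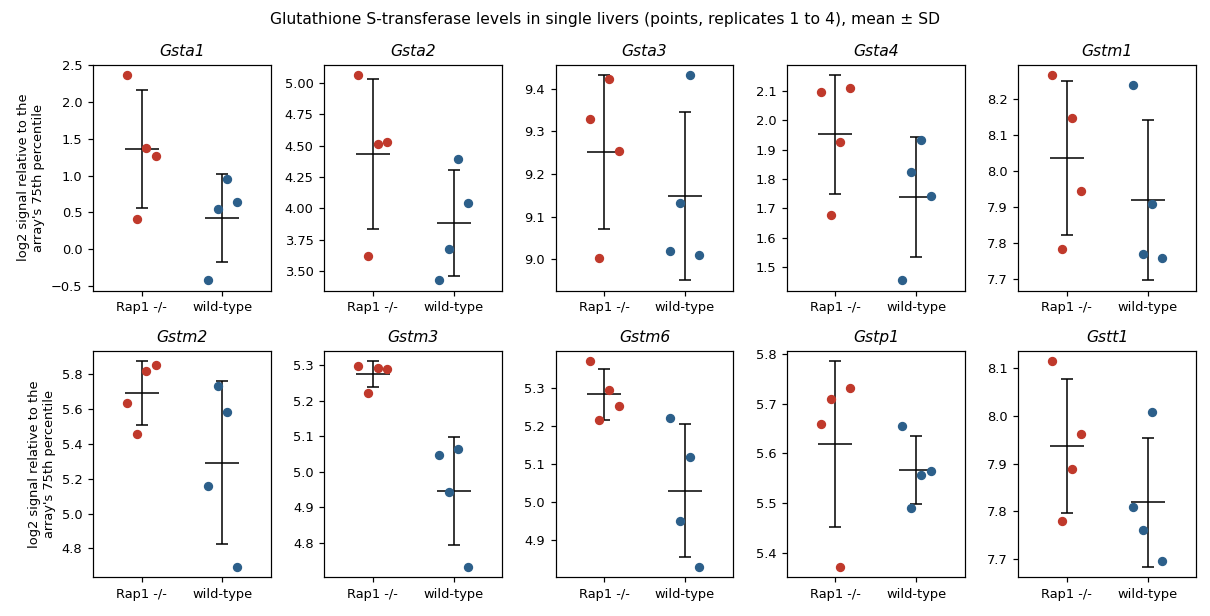
Level of each of the 10 genes in single livers, as log2 signal relative to the 75th percentile of the array (vertical axis, scaled separately for each gene), in 4 Rap1 -/- livers (red) and 4 wild-type livers (blue), with mean ± SD as bars. The genotypes are apart for Gstm3 and overlap for the other 9 genes.

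Among the alpha genes, Gsta1 had the largest difference of the 10 members and the widest scatter. Gsta1 and Gsta2 encode the alpha enzymes that conjugate a broad range of electrophiles and reduce lipid hydroperoxides, and both are strongly inducible in mouse liver. The Gsta1 level was 2.36, 0.41, 1.37 and 1.27 in the 4 Rap1 -/- livers, against -0.42, 0.54, 0.96 and 0.64 in the 4 wild-type livers. Knockout livers 1, 3 and 4 lay above every wild-type liver, and knockout liver 2 lay within the wild-type range. The means were 1.35 ± 0.80 and 0.43 ± 0.59 (SD, n = 4 each), a log2 difference of 0.92 (SE 0.42, 95% confidence interval -0.03 to 1.88) or 1.90-fold, with a limma adjusted p of 0.783 and a two-sided exact permutation p of 0.114. Without Rap1 -/- liver 1 the difference was 0.59, and within the slides that held 4 arrays each it was 1.33 on slide 1 and 0.52 on slide 2.

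Gsta2 had the same highest and lowest livers within the knockout group as Gsta1. Its level was 5.06, 3.62, 4.51 and 4.53 in Rap1 -/- livers, against 3.43, 3.67, 4.39 and 4.05 in wild-type livers. Knockout liver 1 lay highest and knockout liver 2 lowest, and the genotypes overlapped. The log2 difference was 0.55 (SE 0.31, 95% confidence interval -0.16 to 1.26; limma adjusted p = 0.809), or 1.46-fold, and it was 0.34 without Rap1 -/- liver 1.

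Gsta3 and Gsta4 differed less. Gsta3 averaged 9.25 ± 0.18 in Rap1 -/- livers and 9.15 ± 0.20 in wild-type livers (SD, n = 4 each), the ranges lay almost on top of each other, and its log2 difference was 0.10 (95% confidence interval -0.20 to 0.41). Gsta4 encodes the enzyme that clears 4-hydroxynonenal, an aldehyde formed when membrane lipids are oxidized. Its level was 2.10, 1.68, 1.93 and 2.11 in knockout livers, against 1.45, 1.82, 1.93 and 1.74 in wild-type livers. Knockout livers 2 and 3 lay inside the wild-type range, and the difference was 0.21 (SE 0.14, 95% confidence interval -0.11 to 0.54; limma adjusted p = 0.832).

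The mu genes, a cluster on chromosome 3, held the single member whose genotypes did not overlap. Gstm3 had a level of 5.30, 5.22, 5.29 and 5.29 in Rap1 -/- livers, against 5.05, 4.94, 5.06 and 4.73 in wild-type livers. All 4 knockout livers lay above all 4 wild-type livers, as in 3.01% of all tested genes (the reverse was seen in 1.3%). The knockout livers ran from 5.22 to 5.30 and the wild-type livers from 4.73 to 5.06. The means were 5.28 ± 0.04 and 4.95 ± 0.15 (SD, n = 4 each), a log2 difference of 0.33 (SE 0.10, 95% confidence interval 0.10 to 0.56) or 1.26-fold. The limma p was 0.0103, rank 178 among 14066 genes, and 0.770 after adjustment, while the exact permutation p of 0.0286 is the smallest that 4 against 4 arrays can give. The difference was 0.27 within slide 1 and 0.39 within slide 2.

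Gstm6 had a pattern close to that of Gstm3. Its level was 5.37, 5.22, 5.30 and 5.25 in Rap1 -/- livers, against 5.22, 4.95, 5.12 and 4.83 in wild-type livers. The highest wild-type liver reached the lowest knockout liver, so the groups touched. The difference was 0.25 (SE 0.11, 95% confidence interval 0.01 to 0.50; limma p = 0.0463, adjusted p = 0.779; exact permutation p = 0.0571).

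Gstm1 and Gstm2 encode mu enzymes that conjugate epoxides and quinones. Gstm2 had a level of 5.63, 5.45, 5.82 and 5.85 in Rap1 -/- livers, against 5.16, 5.73, 5.58 and 4.69 in wild-type livers. The knockout livers were tight, and the wild-type livers ran from well below them to within their range. The difference was 0.40 (SE 0.22, 95% confidence interval -0.11 to 0.90; limma adjusted p = 0.805), and it was 0.10 within slide 1 and 0.70 within slide 2. Leaving out wild-type liver 4, the lowest, brought it to 0.20. Gstm1 ranged from 7.78 to 8.27 in knockout livers and from 7.76 to 8.24 in wild-type livers, with a difference of 0.12 (SE 0.15, adjusted p = 0.911).

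Gstp1 and Gstt1 were near level between genotypes. Gstp1 encodes the pi enzyme, which in mouse liver is known for higher amounts in males and in the rat for its use as a marker of preneoplastic foci. Its level was 5.66, 5.71, 5.37 and 5.73 in Rap1 -/- livers, against 5.65, 5.49, 5.56 and 5.57 in wild-type livers, a difference of 0.05 (SE 0.11, 95% confidence interval -0.19 to 0.30). Knockout liver 3 was the lowest of all 8, and the sign of this difference is the one that turned with the processing. Gstt1, the theta enzyme that acts on small halogenated compounds, ranged from 7.78 to 8.12 in knockout livers and from 7.70 to 8.01 in wild-type livers, and its difference was 0.12 (SE 0.11, 95% confidence interval -0.14 to 0.37).

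The separate probes of a gene gave differences of the same sign. All 18 member probes were well above background on all 8 arrays. All 18 had a log2 difference above 0, beside 49.7% of the 31069 tested probes, with a median of 0.23 against 0.00 over all probes. That share covers dim probes too, and none was taken over probes of like brightness. Among genes it was 56.1% over all tested ones and 63% over those at least as bright as Gsta1. The 18 probes belong to 10 genes that vary together. By limma over all probes 0 of 18 passed (background 0.00644%), with adjusted p-values from 0.809 to 0.955. At an unadjusted p under 0.05 there were 3 (2.81% of all probes in this direction), and 2 had genotypes apart (2.39%).

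The other probe of Gstm3 had a difference of 0.59 (SE 0.18). It read 5.06, 4.42, 4.68 and 4.81 in Rap1 -/- livers, against 4.09, 4.54, 4.10 and 3.89 in wild-type livers, so wild-type liver 2 lay above knockout liver 2 and the groups overlapped, unlike on the brighter probe. Another probe of Gstm2, A_55_P1966438, read 1.84, 1.81, 2.05 and 1.92 in knockout livers, against 1.24, 1.48, 1.61 and 0.98 in wild-type livers. Here all knockout livers lay above all wild-type livers, with a difference of 0.57 (SE 0.15, limma p = 0.00409, adjusted p = 0.809; exact permutation p = 0.0286), whereas the other 2 probes of Gstm2 overlapped, with 0.40 and 0.38. The probes of Gstm6 ranged from 0.19 to 0.25, those of Gsta3 from 0.10 to 0.21, those of Gstm1 from 0.12 to 0.17 and those of Gstp1 from 0.05 to 0.09. Which transcripts of the mu cluster each probe also binds was not tested, so the mu values are uncertain as to gene.

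**Figure D2:**
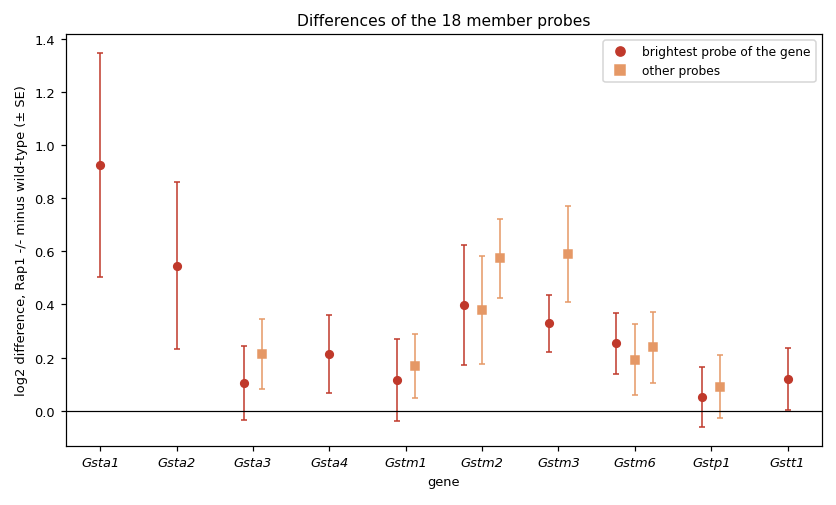
Log2 difference, Rap1 -/- minus wild-type, of each of the 18 probes by gene, with ± SE from limma (n = 4 each). Circles are the brightest probe of a gene and squares its other probes, and all 18 points lie above 0 under this scaling, while the brightest Gstp1 probe was below 0 under 4 others.

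The relatives outside the 10 genes gave a like picture. Of 23 other genes of the soluble family and its structural kin, 18 had a probe, 15 were tested and 0 passed, with 14 of 15 above 0 and a median difference of 0.18. Gm10639 read 4.28, 2.66, 3.67 and 3.59 in Rap1 -/- livers, against 2.34, 2.77, 3.35 and 3.09 in wild-type livers. It had the same high knockout liver 1 and low knockout liver 2 as Gsta1 and Gsta2, and a difference of 0.66 (SE 0.34, limma adjusted p = 0.789). The other mu genes Gstm4, Gstm5 and Gstm7 had differences of 0.16, 0.31 and 0.18. The other probe of Gstm4 had 0.38 (SE 0.12, limma p = 0.0105, adjusted p over probes 0.809, exact permutation p = 0.0286). On it all knockout livers lay above all wild-type livers, as on 2.39% of all tested probes. On Gstm4's brighter probe the genotypes overlapped. The other probes of Gm10639 and Gstm7 had 0.50 and 0.15, and there the genotypes also overlapped. Differences were 0.23 and 0.24 for the theta genes Gstt2 and Gstt3. Gstp2 had -0.04 and Gstp3 0.14.

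Among the remaining classes, Gstk1, the mitochondrial and peroxisomal kappa enzyme, had a difference of 0.20, Gsto1, an omega enzyme that reduces dehydroascorbate, 0.18, and Gstz1, the tyrosine-breakdown enzyme maleylacetoacetate isomerase, 0.10. Gsto2 had 0.47 and was well above background on 4 Rap1 -/- arrays and 3 wild-type arrays. Gstcd had 1.04 (SE 0.51) but was well above background on only 3 Rap1 -/- arrays and 1 wild-type array, so this value rests on dim spots. The chloride channel proteins Clic1 and Clic4, which share the fold, had 0.01 and 0.12. Other probes of Gstp2 and Clic4 had the opposite sign, at 0.06 and -0.18. Gstt4, Gdap1 and Hpgds cleared the background on 0 of 8 arrays.

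The membrane-bound transferases, a separate protein family (MAPEG) with glutathione-dependent activity, were mixed. Of 6 tested genes 0 passed and 2 were above 0, with a median of -0.07. Mgst1, the microsomal transferase of liver, read 8.85, 9.14, 8.95 and 8.89 in Rap1 -/- livers, against 8.55, 8.56, 8.89 and 8.76 in wild-type livers, and its difference was 0.27 (SE 0.12, limma p = 0.0486, adjusted p = 0.780; exact permutation p = 0.0571). Wild-type liver 3 reached the level of knockout livers 1 and 4 on this probe. On the other probe of Mgst1 all knockout livers lay above all wild-type livers, as on 2.39% of all tested probes. The difference there was 0.31 (SE 0.10, limma p = 0.0137, adjusted p over probes 0.809, exact permutation p = 0.0286). Mgst3 had 0.20, Mgst2 -0.08, the prostaglandin E synthase Ptges -0.06, and the leukotriene genes Ltc4s and Alox5ap -0.24 and -0.15. The other probes of Mgst3 and Ptges had 0.28 and -0.31, and on both the genotypes overlapped.

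**Figure D3:**
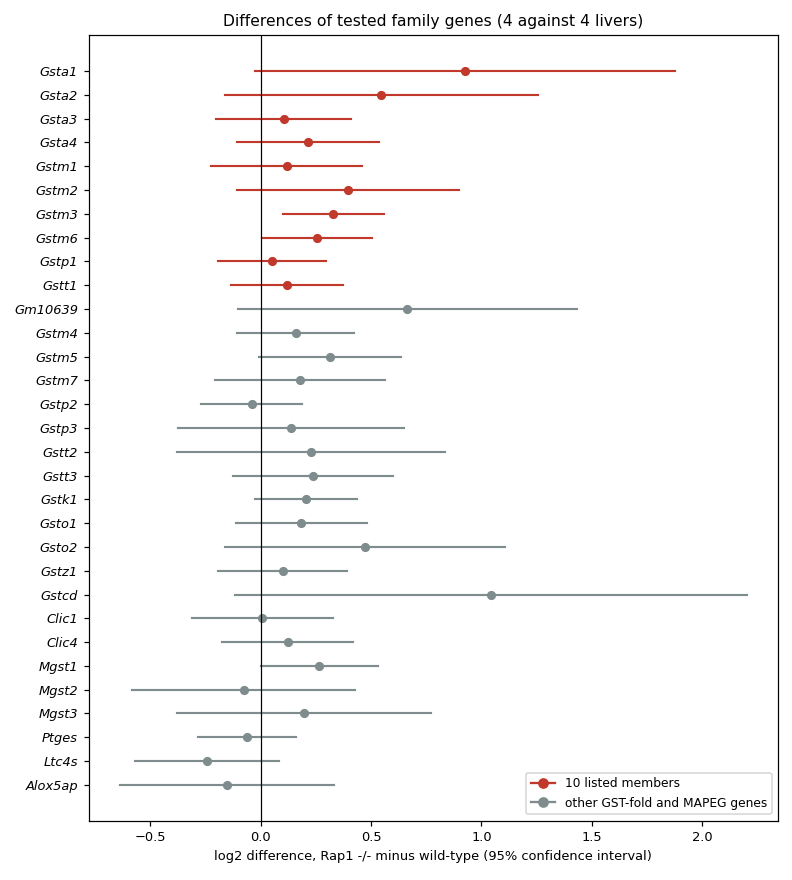
Log2 difference, Rap1 -/- minus wild-type, of the 31 tested genes of the soluble and membrane-bound families, with 95% confidence intervals from limma (n = 4 each). Of the 10 members (red) only the intervals of Gstm3 and Gstm6 lie above 0, and none of the 31 genes passed after adjustment over all tested genes.

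For the inducible alpha genes, the highest and lowest livers of a genotype lay further apart than the genotype means. The SD was 0.80 in Rap1 -/- and 0.59 in wild-type livers for Gsta1, beside a difference of 0.92. For Gsta2 it was 0.60 and 0.42, beside 0.55, and for Gm10639 0.67 and 0.43, beside 0.66. Rap1 -/- liver 1 lay 1.01 above its genotype mean for Gsta1, 0.63 for Gsta2 and 0.73 for Gm10639, and Rap1 -/- liver 2 lay at -0.95, -0.81 and -0.89. Among wild-type livers, liver 1 was the low one, at -0.85, -0.46 and -0.54, and liver 3 the high one, at 0.53, 0.51 and 0.46. Knockout liver 2 was also low for Gstt2 (-0.77) and Mgst3 (-0.76), while for Gstm3 and Gstm6 it lay at -0.05 and -0.07.

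Across the 8 livers, after each genotype's mean was removed, the levels of Gsta2 and Gm10639 had a Pearson r of 0.99, those of Gsta1 and Gm10639 0.97, and those of Gsta1 and Gsta2 0.94. Gsta1 and Gsta4 had 0.87, Gstm3 and Gstm6 0.89, Gstp1 and Gstp2 0.91, and Gstt1 and Gstt3 0.94. The genes of each of these pairs went up and down together from liver to liver, on probes that may share binding. Pairs from different classes and chromosomes reached like values, with 0.95 for Gsta3 and Gstz1, 0.90 for Gstt1 and Ptges and 0.89 for Gsta3 and Gstm5. Over the 45 pairs of members the median r was 0.33 with genotype means removed, with 36 above 0 and a range from -0.51 (Gsta3 and Gstp1) to 0.94. Without that step the median was 0.52 and 40 were above 0. All these coefficients rest on the same 8 arrays and their shared scaling.

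**Figure D4:**
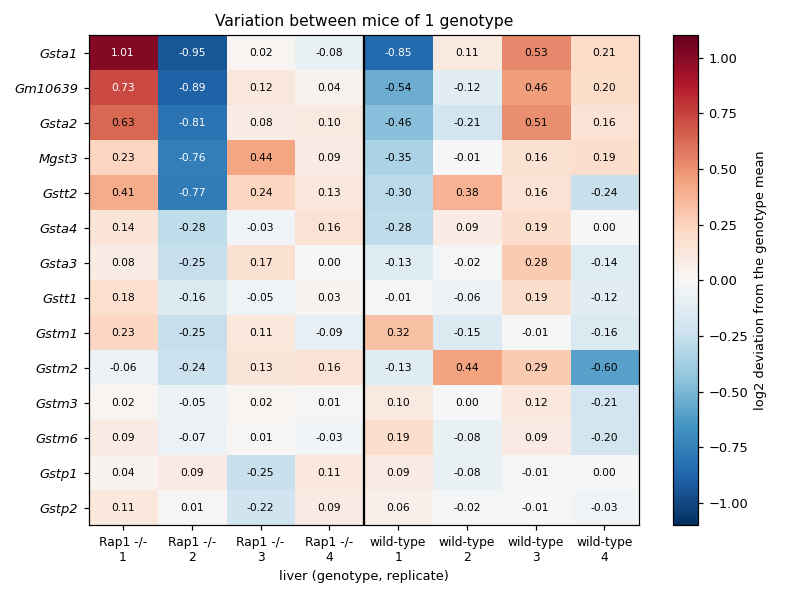
Deviation of each liver from the mean of its genotype (log2, colour and printed value) for the 10 members and 4 related genes, with 4 Rap1 -/- livers left of the line and 4 wild-type livers right of it. Rap1 -/- livers 1 and 2 stand at opposite ends for Gsta1, Gm10639 and Gsta2, by 1.01 against -0.95 for Gsta1.

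Averaged over the 10 genes, each standardized over the 8 livers, the family level was 1.13, -0.32, 0.44 and 0.65 in Rap1 -/- livers, against -0.52, -0.58, 0.23 and -1.02 in wild-type livers, in SD units. Knockout liver 1 and wild-type liver 4 were the extremes, and knockout liver 2 lay below wild-type liver 3. The tested genes outside the family whose level was most like this profile were Cmc1, a mitochondrial protein of cytochrome oxidase assembly, Pls3, an actin-bundling plastin, Sardh, the mitochondrial sarcosine dehydrogenase, Txn2, the mitochondrial thioredoxin, and Spc24, a kinetochore subunit, with r from 0.963 to 0.969 over 8 livers. These are the top 5 of all tested genes outside the family, and with so few livers high values are easily reached.

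None of the genes that supply, reuse or export glutathione passed the threshold. Of 11 tested genes of glutathione synthesis and its sulfur supply, 7 were above 0 and 0 passed, with a median of 0.11. Bhmt, which remethylates homocysteine, had 0.66 (SE 0.28, adjusted p = 0.776), Gnmt, the sink for methyl groups, -0.02 and Cbs, which turns homocysteine into cystathionine, 0.11. Of 12 genes of turnover 7 were above 0 (median 0.13), of 18 of reduction and peroxide removal 15 (median 0.12) and of 11 of conjugate export 9 (median 0.10), with 0 passing in each. Gpx1 and Gpx4, the selenium-dependent peroxidases, had 0.15 and 0.12, and the exporters Abcc3, Abcc6 and Abcc2 had 0.09, 0.07 and -0.14.

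Targets of the regulators named above were read from lists drawn from knowledge of liver, with earlier results of these data known. The counts over these lists are descriptions. Of 20 tested NRF2 targets 16 were above 0, with a median of 0.11 and 0 passing; Ephx1, the epoxide hydrolase, had 0.31 and the ferritin genes Ftl1 and Fth1 had -0.12 and 0.08. Of 19 targets of CAR, PXR and the aryl hydrocarbon receptor 14 were above 0, with a median of 0.18 and 0 passing, 4 higher at an unadjusted p under 0.05 (4.01% of all tested genes) and 3 with all knockout above all wild-type livers (3.01%). Cyp3a11, the main steroid and drug oxidase of mouse liver, had 0.60 (SE 0.11, adjusted p = 0.493), Cyp2c50 0.37 and Cyp2c29 0.18. The regulators themselves split evenly, 10 of 20 above 0 with a median of 0.00, among them Hnf4a at -0.17 and Ppara at 0.00. Of genes with sex-biased liver levels, 9 of 12 male-biased (median 0.14) and 9 of 15 female-biased ones (median 0.16) were above 0, and 0 passed in either list. The male-biased Serpina1e, Mup20 and Ugt2b38 had -0.18, 0.09 and 0.11, and the female-biased Sult2a2, Sult2a1 and Cyp3a16 had 0.30, 0.19 and 0.49. All knockout livers lay above all wild-type livers for Cyp3a16 (3.01% of all tested genes) and below them for Serpina1e (1.3%).

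Across the whole series the deleted gene was read first. The Rap1 gene carries the symbol Terf2ip and has 2 probes. A_52_P381806 was well above background on 0 of 4 Rap1 -/- arrays and 4 of 4 wild-type arrays (limma adjusted p over probes 7.09e-06). A_55_P2094079 was 1.20 higher in Rap1 -/- livers (SE 0.15, limma adjusted p over probes 0.127), and its place relative to the deleted part is not known here. This second probe has the higher mean and stood for the gene, so Terf2ip was not among the 2 genes called. The share of probes well above background was 50.04% to 57.5% on Rap1 -/- arrays and 53.3% to 65.3% on wild-type arrays, and arrays correlated at 0.984 to 0.993. The 75th percentile that was subtracted lay between 220 and 227 on Rap1 -/- arrays and between 179 and 209 on wild-type arrays, without overlap. Rap1 -/- arrays held positions 3 and 4 and wild-type arrays positions 1 and 2 of each slide, so genotype and position on the slide cannot be told apart. Hepatocyte markers averaged 8.45 to 8.58 in Rap1 -/- livers and 8.46 to 8.60 in wild-type livers, with 6 of 14 above 0.

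In whole liver, a different number of cells of a type and a different amount of RNA per cell cannot be told apart. Pericentral hepatocyte markers, from the zone where many transferases are made, averaged 4.54 to 4.83 in Rap1 -/- livers and 4.51 to 4.66 in wild-type livers, with 6 of 11 above 0. Of 10 Kupffer cell and macrophage markers 0 were above 0 (median -0.17; 3.20 to 3.91 in Rap1 -/- livers and 3.53 to 3.99 in wild-type livers), and of 5 neutrophil markers also 0 (median -0.70; -0.70 to 0.13 and -0.41 to 0.82), with the granule gene Ltf clear of the background on 0 of 8 arrays. Of 9 T and NK cell markers 1 was above 0 (median -0.16), of 6 B cell markers 1 (median -0.16) and of 8 cholangiocyte markers 5 (median 0.38). None of these lists had a gene past the threshold, and their part in the family's differences was not tested.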

How the data were processed

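Total RNA of 8 livers (4 Rap1 -/-, 4 wild-type) was extracted with Trizol and QIAGEN columns, labelled with Cy3 and hybridized by the authors to Agilent arrays. Per the file headers, spot values are fluorescence intensity read with Feature Extraction 10.7.3.1 (the methods give a different release). The deposited processed signal is an intensity, background-subtracted but not scaled between arrays. A log2 table deposited by the authors was also read, and the submitters' processing notes name limma. This table was within 0.05 of normexp (offset 50) and quantile values for 99.5% of entries, with column medians from 6.39 to 6.40, so it was taken as log2, not centred, and used as an alternative.

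Outlier spots were left out, log2 signals of repeated spots averaged, and each array's 75th percentile subtracted. Levels are therefore log2 values relative to that percentile, and levels of different probes are not on a common scale of transcript number. Of 55681 probes, 26056 were named through RefSeq accessions (GRCm38.p6, while the arrays are annotated on mm9). Probes well above background on at least 4 of 8 arrays were tested (31069), and a gene is its tested probe with the highest mean (14066 genes). Of 10 members, 10 passed this filter. No spot was saturated (0). limma 3.58.1 in R 4.3.3 (lmFit, eBayes, no covariate) compared Rap1 -/- with wild-type, with Benjamini-Hochberg adjustment over all genes or probes, and the exact permutation test was two-sided over 70 partings. The fit was tested on simulated data. The number of arrays limits the precision. Per the series design, the 4 arrays of a genotype are biological replicates, and the labels number them 1 to 4. Promoter windows were aligned with Biopython 1.88.

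The genes set for naming were all members with every probe, all family genes with a probe and the 3 brightest genes of each further list. The 5 genes most like the family profile were added. Some of the brightest list genes are left out of the text, and those had limma adjusted p-values above the threshold. The members and lists were chosen with earlier results of these data known. Alternatives covered background correction, normalization, the filter on dim probes, the variance model, slide, the replicate number, the probe rule and each array left out. The planned normexp alternative named the mean foreground signal, and the files used here hold the median foreground signal, which was taken instead.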

Additional observations from a re-analysis of the deposited data

Results flagged for a closer look

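Of 62 gene and genotype groups of 4 livers checked, 2 held a liver far from the other 3 (gap to the nearest over the range of the group above 0.829), where chance alone gives about 5%. For Gstm3, Rap1 -/- liver 2 (5.22) lay below the other 3 (5.29 to 5.30), with a gap of 0.869 of a range that spans under 0.10 on the log2 scale. For Gsto2, Rap1 -/- liver 4 (-3.58) lay below the other 3 (-2.76 to -2.69), with a gap of 0.918 of the range, on a probe that was well above background on 4 Rap1 -/- and 3 wild-type arrays.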

How the results depend on the processing

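A missed threshold does not show equal levels. Over 21 alternatives, 0 of 210 member values passed the threshold (lowest adjusted p 0.752), and 205 kept their sign. The 5 that turned were all of Gstp1: -0.00901 with normexp and quantile normalization, -0.0212 with quantile normalization of the processed signal, -0.00547 with cyclic loess, -0.0119 in the authors' table and -0.00904 within slide 2. Members above 0 numbered 9 in those 5 and 10 in the other 16. The median difference over the members lay between 0.17 and 0.29 (0.19 to 0.29 with single arrays left out), and that of all genes between -0.01 and 0.05. With single arrays left out, Gsta1 ran from 0.59 to 1.24, Gsta2 from 0.34 to 0.82, Gstm2 from 0.20 to 0.54 and Gstm3 from 0.26 to 0.37. Between 0 and 3 members had an unadjusted p under 0.05, and between 0 and 3 genes of the whole array were called.

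The labels number the replicates 1 to 4 in both genotypes. Livers with the same number had correlations of their deviations of 0.09, -0.18, -0.07 and 0.10, and pairs with different numbers had -0.39 to 0.23. Livers 1 and 2 of both genotypes were on slide 1, and livers 3 and 4 on slide 2. Whether livers of the same number share anything besides the slide is not known here. With the replicate number as a block the median over the members was 0.23, 0 of 10 members were called, and 0 genes were called against 2 without it.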
